A study of Mus musculus with 12 samples.

Results

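Neurexins, neuroligins and teneurins are transmembrane proteins through which nerve cells hold on to each other. The genes described here are 9 of 25674 rows in the count table, matched by gene symbol: the neurexin genes Nrxn2 and Nrxn3, the neuroligin genes Nlgn1, Nlgn2 and Nlgn3, and the teneurin genes Tenm1, Tenm2, Tenm3 and Tenm4. All 9 are annotated as protein coding, all 9 were found and all 9 passed the filter on low counts. They were read in spiral ganglion neurons, the cells that relay sound from the cochlea to the brainstem, taken from mouse embryos at stage E14.5. By the protocol, each of 12 libraries held 100 sorted cells from the 2 ears of 1 embryo, and the embryos came from 4 litters that the labels do not tie to samples. The 6 control embryos carried the Cre transgene Neurod1Cre, a bacterial artificial chromosome in which Neurod1 sequences drive Cre recombinase, and the red reporter Rosa26tdTOM. The 6 embryos of the other group, labelled Isl1CKO, carried the same Cre and reporter together with Isl1loxP/loxP, so that Cre can remove a segment of Isl1, which encodes a LIM homeodomain transcription factor. Cells were sorted for the reporter, so Cre had been active in the cells of both groups. The lines were on a mixed background of C57BL/6 and sv129, and both sexes were used.

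Neurexins sit mainly on the presynaptic side and bind neuroligins and several secreted or postsynaptic ligands across the cleft. Neuroligins recruit the scaffolds of excitatory or inhibitory synapses, with NLGN1 known mainly from excitatory and NLGN2 from inhibitory contacts. Teneurins bind each other and the latrophilins, which are adhesion receptors coupled to G proteins, and the FLRT proteins bind latrophilins beside them. In several sensory systems, matched teneurins on an axon and its target help to select the partner, and the series asks what ISL1 contributes to the map of sound frequency along the cochlea and in the brain.

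Library totals ran from 11895603 to 13857480 counts. Isl1 itself had between 1051 and 1589 CPM (counts per 1000000, with library sizes adjusted by TMM) in the libraries labelled Isl1CKO and between 1171 and 1777 CPM in the controls. The edgeR fit gave it -0.15 in log2 fold change (SE 0.11, edgeR adjusted p = 0.460). Isl1 counts thus overlap between the groups, and which embryo was mutant is known here from the labels. With 1 count for the gene, loss of the floxed segment could not be read. Neuron markers were high throughout: Tubb3, a neuronal tubulin, lay between 2769 and 4630 CPM over all libraries, while the otic neuron gene Gata3 lay between 1008 and 1657 CPM in controls and between 18.2 and 528 CPM in the other group. Transcripts of both sexes, Xist together with Y-linked genes, were present in 3 libraries, Isl1CKO 2, 3 and 5, which goes against 1 embryo per library as the protocol gives it. Control 3 stood apart in the share of counts from mitochondrial genes, at 1.65% against 1.05% to 1.18% in the other 5 controls and 0.845% to 1.02% in the libraries labelled Isl1CKO. All 8 macrophage markers exceeded a floor of 3 counts in at least 1 library. Their summed levels were 1.33 to 322 CPM in controls (median 6.06) and 0.656 to 676 CPM in the other group (median 106). Control 1 and Isl1CKO 4 were the highest of their groups. The 7 glia markers summed to 9.47 to 158 CPM and 16.1 to 217 CPM, with Sox10 at no more than 13.6 CPM. The 7 mesenchyme markers summed to 38.1 to 84.2 CPM and 69.9 to 120 CPM. Of these, 2 were called higher without overlap: Tbx18, with 0 to 3.73 CPM in controls and 24.6 to 51.4 CPM in the other group, and Col3a1, with 0.748 to 5.39 CPM and 6.42 to 28.2 CPM. The mean of Col1a2 was 1.30 CPM in controls and 4.67 CPM in the other group, that of Prrx1 0.337 and 4.72 CPM, and that of Col1a1 0.234 and 0.564 CPM. Means of Pou3f4 were 52.9 and 27.4 CPM, and those of Twist1 1.13 and 0.0129 CPM. The part of these other transcripts in the results that follow was not tested.

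Of the 9 genes, 3 passed an adjusted p of 0.05 in edgeR's quasi-likelihood test, where p-values were adjusted by Benjamini and Hochberg over all 14813 tested genes. All 3 were teneurins: Tenm3 and Tenm4 were lower and Tenm1 was higher in the libraries labelled Isl1CKO. Over all tested genes 10.2% were called, 5.19% lower and 5.01% higher. The share called among the 9 was 33.3%, and their median log2 fold change was 0.32, against 0.0045 over all tested genes. The 9 were chosen with earlier results of these data known, so this share is a description and not a test. Neither neurexin gene and none of the 3 neuroligin genes passed. The same 3 teneurins, and no other of the 9, were called without Isl1CKO 2, 3 and 5, while without control 3 Nrxn3 and Tenm2 were called as well. Since each library is a bulk of 100 cells, fewer cells of a kind and less RNA per cell cannot be told apart. The sample numbers carry a tag that names technical replicates, whereas the series text speaks of biological ones. Xist was at 398 and 271 CPM in controls 3 and 4 and at most 0.366 CPM in the other controls. It was at 0.317 CPM in Isl1CKO 1 and 185 CPM in Isl1CKO 6. Neither group thus came from 1 embryo alone, but whether some libraries share an embryo was not tested. If some do, the p-values measure technical spread in part.

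**Figure D1:**
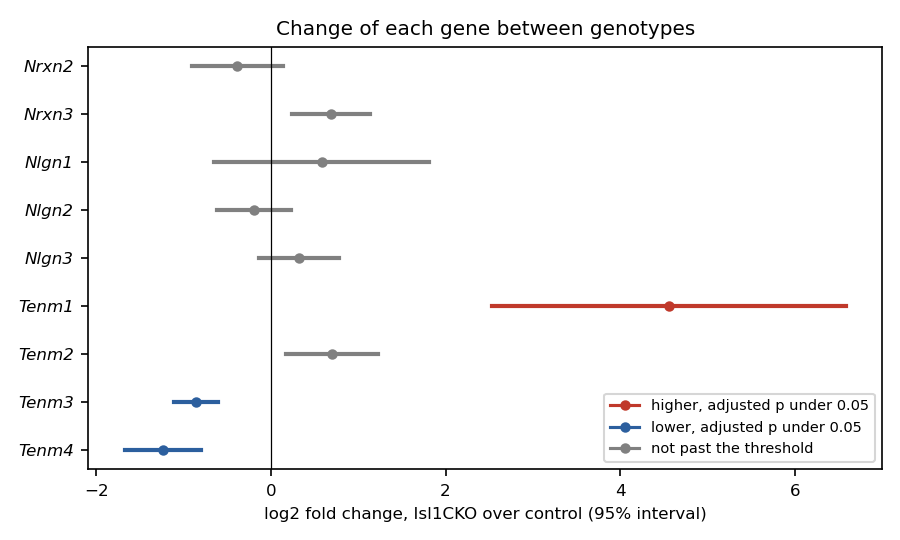
Log2 fold change of each of the 9 genes, Isl1CKO over control (6 libraries each), with its 95% interval from the edgeR fit; colour marks the direction of genes past an adjusted p of 0.05. The intervals of Tenm3 and Tenm4 lie below 0 and that of Tenm1 above 0, while those of Nrxn3 and Tenm2 exclude 0 although their adjusted p does not pass.

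The teneurin genes are large and spread over long stretches of the genome, and their annotated start sites differ in base composition. The RefSeq windows from 250 bases before to 50 bases after a start site on GRCm38.p6 are shown for the 3 genes that passed the test, for Tenm4 the first of its 2 windows. In capitals are matches, on either strand, to TAATTA, the core read by many LIM homeodomain proteins, to CTAATNG, a string of the kind that ISL1 is known to bind, and to CATNTG, an E-box form read by basic helix-loop-helix factors such as NEUROD1. None of the 3 strings overlaps another in these windows.
Tenm1, chrX:43274735-43275034, minus strand: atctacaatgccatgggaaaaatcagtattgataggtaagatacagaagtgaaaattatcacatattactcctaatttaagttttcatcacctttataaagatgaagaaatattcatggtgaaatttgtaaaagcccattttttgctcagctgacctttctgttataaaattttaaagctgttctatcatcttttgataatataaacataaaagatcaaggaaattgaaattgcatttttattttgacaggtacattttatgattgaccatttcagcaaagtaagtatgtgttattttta
Tenm3, chr8:48674641-48674940, minus strand: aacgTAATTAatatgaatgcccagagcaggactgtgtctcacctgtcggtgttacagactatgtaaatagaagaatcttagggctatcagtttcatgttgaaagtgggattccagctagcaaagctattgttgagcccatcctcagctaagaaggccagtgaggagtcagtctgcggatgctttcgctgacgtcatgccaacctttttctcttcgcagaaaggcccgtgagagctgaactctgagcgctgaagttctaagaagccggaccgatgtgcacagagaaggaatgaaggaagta
Tenm4, chr7:96170994-96171293, plus strand: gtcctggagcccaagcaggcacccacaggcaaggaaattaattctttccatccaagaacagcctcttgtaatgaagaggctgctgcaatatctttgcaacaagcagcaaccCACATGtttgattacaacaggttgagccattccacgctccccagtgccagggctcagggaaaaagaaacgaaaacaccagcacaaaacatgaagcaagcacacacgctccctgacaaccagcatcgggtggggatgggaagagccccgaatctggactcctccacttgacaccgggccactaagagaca
The Tenm1 window held 27.0% G and C and 0 CpG pairs, and 0.307% of the 32851 windows of the same length in the RefSeq table had less. The Tenm3 window held 47.3% G and C with 10 CpG pairs, and the first of Tenm4 52.0% with 6, near the median of 52.7% and 7. The Tenm4 window that is not printed, 40.4 kb inside the gene, held 52.3% with 12 CpG pairs and a match to CATNTG 7 bases before its start site. Of 11 windows found for 7 of the 9 genes, 1 held TAATTA, the Tenm3 window printed here, compared with 5.29% of all windows. For CTAATNG it was 1 of 11, at a start site within Nrxn3, against 5.76%, and for CATNTG 3 of 11, in Tenm4 and Nrxn3, against 39.4%. These matches are descriptions of letters and not of bound sites. The RefSeq start sites of Tenm1 and Tenm3 lie 154.3 and 169.3 kb inside the gene as GENCODE draws it, and which start sites these cells use was not analysed here.

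Tenm3 (ENSMUSG00000031561, chromosome 8, 48227682 to 48843951 on GRCm38, minus strand) encodes a teneurin known from the matching of projections in the visual system and hippocampus. It had a lowest, median and highest level of 105, 123 and 145 CPM in the 6 controls, and of 48.5, 72.6 and 77.1 CPM in the libraries labelled Isl1CKO. Every control lay above every library of the other group. The mean went from 124 ± 14.3 to 68.5 ± 10.3 CPM (SD, n = 6), and the fit put the log2 fold change at -0.86 (SE 0.12, 95% interval -1.11 to -0.60, edgeR adjusted p = 2.35e-04). Tenm3 ranked 201 by p among the tested genes. The exons of Gm19744 overlap those of Tenm3 on the opposite strand, and that gene had 3.59 to 9.34 CPM in controls and 0.511 to 5.59 CPM in the other group. Whether strand was used in counting is not given in the sources used here, so reads of this pair may be mixed, at a level well under that of Tenm3.

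Tenm4 (ENSMUSG00000048078, chromosome 7, 96171246 to 96911093, plus strand), known also for a role in the maturation of oligodendrocytes, fell as well. Its lowest, median and highest levels were 75.3, 95.4 and 160 CPM in controls and 24.8, 42.8 and 58.1 CPM in the libraries labelled Isl1CKO. Here too the groups were apart, with control 3 highest of all and Isl1CKO 3 lowest. The mean went from 104 ± 29.6 to 43.9 ± 11.8 CPM (SD, n = 6), and the fit put the log2 fold change at -1.24 (SE 0.21, 95% interval -1.68 to -0.80, edgeR adjusted p = 0.00106). Tenm3 and Tenm4 were the only 2 of the 9 genes whose groups did not overlap, a separation seen for 6.78% of all tested genes. Neither call depended on control 3: without it the log2 fold change of Tenm4 was -1.08.

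Tenm1 (ENSMUSG00000016150, chromosome X, 42527866 to 43429126, minus strand) was nearly silent in controls. Control replicates 1 to 6 held 3, 2, 32, 3, 1 and 0 counts of it, and replicates 1 to 6 labelled Isl1CKO held 89, 24, 202, 227, 433 and 86. On the CPM scale the lowest, median and highest were 0, 0.185 and 2.67 in controls and 1.86, 11.1 and 31.6 in the other group. All but control 3 were at or under a floor of 3 counts, and Isl1CKO 2 was the only library of its group that did not exceed control 3. Mean levels of 0.561 ± 1.04 and 13.2 ± 10.6 CPM (SD, n = 6) stood at a ratio of 23.5. The fitted log2 fold change was 4.56 (SE 0.95, 95% interval 2.53 to 6.59, edgeR adjusted p = 0.00564). Without control 3 it was 6.48 (edgeR adjusted p = 2.15e-04), and the Isl1CKO mean was then at least 57.4-fold above the controls, taken at the floor of 0.230 CPM.

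The gene is X-linked, and the labels give no sex per library. Control 3 and control 4 both had Xist, at 398 and 271 CPM, with Tenm1 at 2.67 and 0.222 CPM. Among the libraries labelled Isl1CKO, replicates 1 and 4 had Y-linked transcripts with Xist at 0.317 and 0.373 CPM, and their Tenm1 levels were 7.05 and 17.0 CPM. Replicate 6, with Xist at 185 CPM and Y-linked genes near 0, had 6.55 CPM of Tenm1, so Tenm1 was above the floor in libraries of either pattern in that group. Without Isl1CKO 2, 3 and 5 Tenm1 still passed at 4.18 in log2 fold change (edgeR adjusted p = 0.0454). The exons of Sh2d1a overlap Tenm1 on the opposite strand, and Sh2d1a did not exceed 0.310 CPM in any library.

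Tenm2 (ENSMUSG00000049336, chromosome 11, 36006656 to 37235964, minus strand), a known partner of latrophilins at synapses, did not pass the test. Its lowest, median and highest levels were 9.44, 14.7 and 30.6 CPM in controls and 21.3, 26.4 and 32.2 CPM in the libraries labelled Isl1CKO. All 6 of the latter lay above the control median, but control 3, at 30.6 CPM, lay within their range. The fitted log2 fold change was 0.70 (SE 0.25, 95% interval 0.17 to 1.23, edgeR adjusted p = 0.0917). Without control 3 it was 0.96 and passed (edgeR adjusted p = 0.00648).

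**Figure D2:**
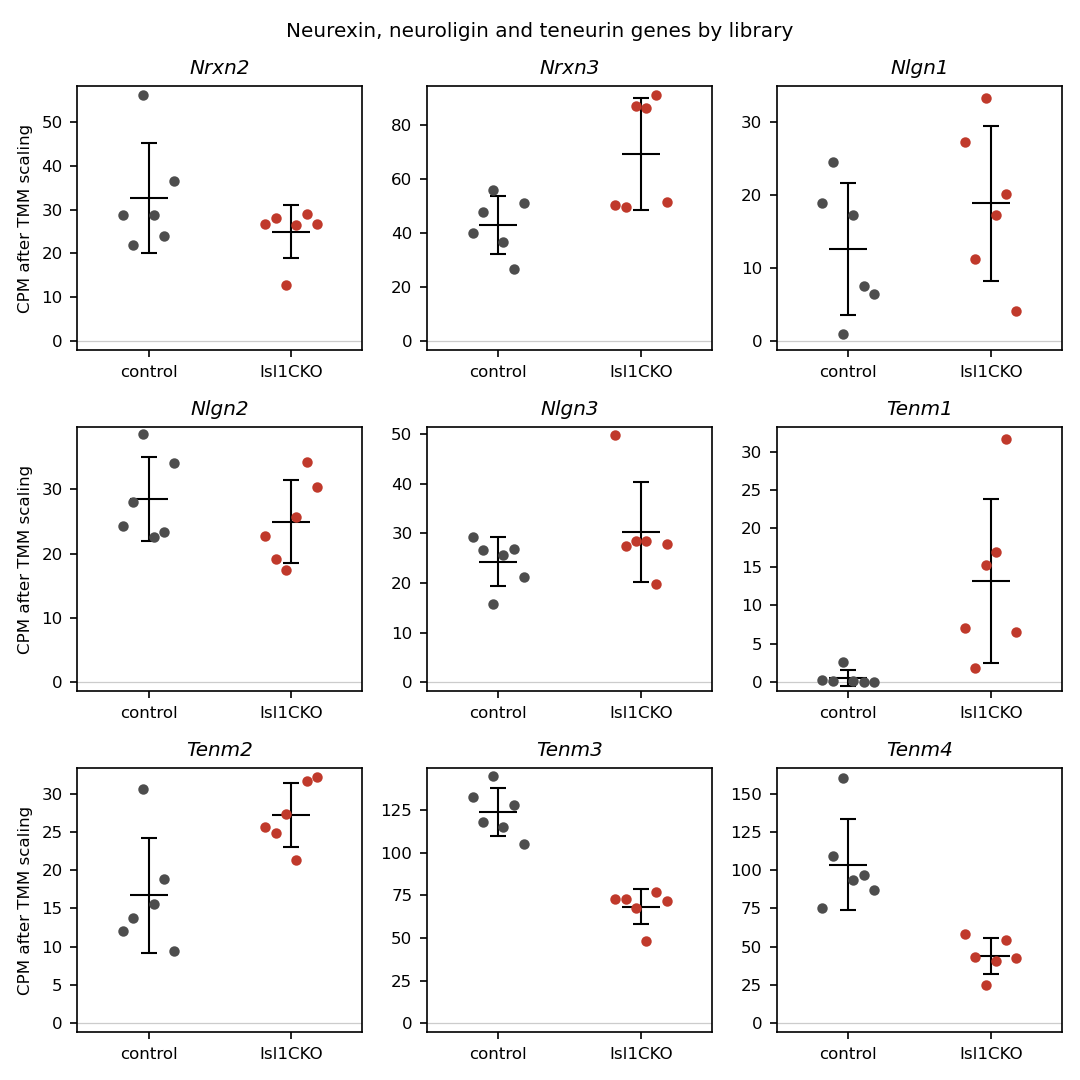
Level of each of the 9 genes in every library, in CPM after TMM scaling on a linear axis; points are the 6 libraries of a group in the order of their numbers, the wide bar is the mean and the thin bars the SD. Tenm3 and Tenm4 separate the groups, Tenm1 is near 0 in 5 controls, and the neurexin and neuroligin genes overlap between groups.

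Tenm1 and Tenm2 made up larger mean shares of the summed teneurin level in the libraries labelled Isl1CKO than in controls, and Tenm3 and Tenm4 smaller ones. Levels of different genes were compared per kilobase (kb) of exon, as CPM divided by the joined exon length in GENCODE M21. Tenm3 made up 65.9% ± 5.17 of the summed teneurin level in controls and 56.3% ± 4.76 in the libraries labelled Isl1CKO (SD, n = 6). Tenm4 made up 26.3% ± 3.66 and 17.5% ± 3.89. Tenm2 went from 7.60% ± 2.02 to 20.0% ± 1.94, with 5.42% to 10.9% in controls and 17.8% to 22.9% in the other group. Tenm1 went from 0.139% ± 0.234 to 6.19% ± 4.48. The summed level of the 4 genes was 18.5 ± 3.20 CPM per kb in controls and 11.9 ± 1.73 CPM per kb in the other group (SD, n = 6). The Tenm2 share is read against a smaller sum, and its own level did not pass the test. These shares are descriptions without a test.

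**Figure D3:**
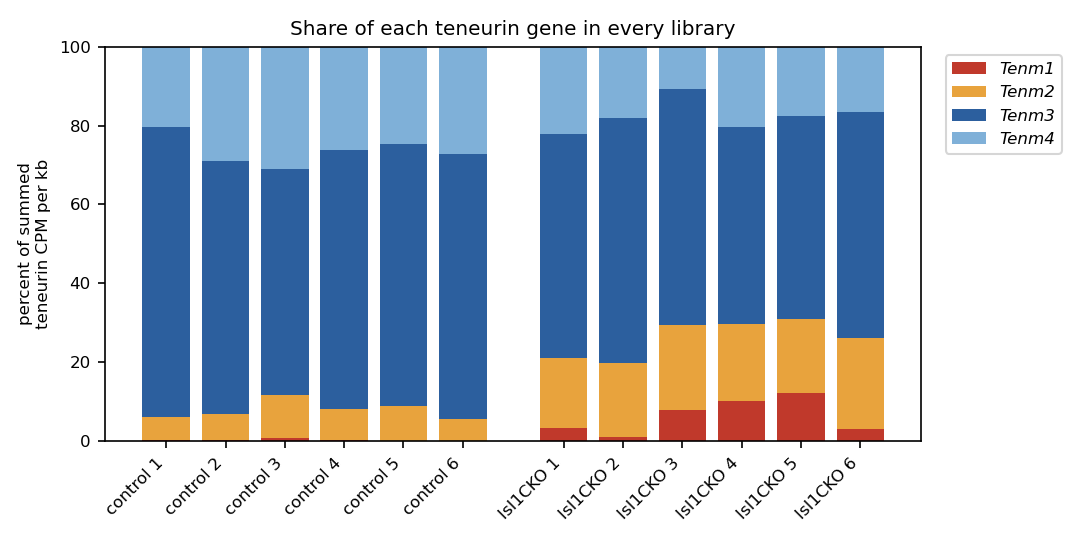
Share of each teneurin gene in the summed teneurin level per kb of exon, in percent, for each of the 12 libraries; the segments of a bar add to 100%. Tenm1 and Tenm2 together take a larger part of every library labelled Isl1CKO than of any control, and Tenm3 is the largest part everywhere.

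Of the neurexin genes, Nrxn3 came nearest to a call. Nrxn3 (ENSMUSG00000066392, chromosome 12, 88722876 to 90334935, plus strand) had a lowest, median and highest level of 26.7, 43.8 and 55.9 CPM in controls and of 49.7, 68.8 and 91.1 CPM in the libraries labelled Isl1CKO. Of the latter, replicates 3, 4 and 5 lay at 86.3 to 91.1 CPM, above every control, and the other 3 lay inside the control range. The fitted log2 fold change was 0.69 (SE 0.21, 95% interval 0.24 to 1.14, edgeR adjusted p = 0.0502). It passed when control 3 or any of Isl1CKO 1, 2 and 6 was left out (edgeR adjusted p from 0.0371 to 0.0439). It also passed in the DESeq2 Wald test (adjusted p = 0.0127) and with limma-voom (adjusted p = 0.0461), and it stood at 0.54 without Isl1CKO 2, 3 and 5 (edgeR adjusted p = 0.284). The only match to CTAATNG among the 11 windows, which cover 7 of the 9 genes, lies 66 bases before a RefSeq start site within Nrxn3, shown with its match in capitals.
Nrxn3, chr12:88953309-88953345, plus strand: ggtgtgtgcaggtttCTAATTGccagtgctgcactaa
Whole-gene counts join the long alpha and the short beta forms of a neurexin, which start at different promoters, and do not show which splice forms were made.

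Nrxn2 (ENSMUSG00000033768, chromosome 19, 6418731 to 6544169, plus strand) had 22.0, 28.7 and 56.0 CPM as the lowest, median and highest control and 12.8, 26.8 and 28.9 CPM in the libraries labelled Isl1CKO. The ranges overlapped, with control 3 at the top and Isl1CKO 3 at the bottom. The log2 fold change was -0.39 with a 95% interval of -0.91 to 0.14 (edgeR adjusted p = 0.379), and without control 3 it was -0.17. Gm14964, whose exons overlap on the opposite strand, had at most 5.62 CPM. Within the sum of these 2 neurexin genes per kb, Nrxn3 made up 59.5% ± 6.24 in controls and 74.2% ± 8.68 in the other group (SD, n = 6), with ranges of 52.2% to 70.4% and 66.0% to 88.2%.

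The neuroligin genes did not pass the test in either direction. Nlgn2 (ENSMUSG00000051790, chromosome 11, 69823122 to 69837784, minus strand), of inhibitory synapses, had 22.5, 26.1 and 38.6 CPM in controls and 17.5, 24.1 and 34.2 CPM in the libraries labelled Isl1CKO as lowest, median and highest. Its log2 fold change was -0.19 with a 95% interval of -0.62 to 0.23 (edgeR adjusted p = 0.619), so a change of more than 0.62 on the log2 scale in either direction lay outside the interval. Nlgn3 (ENSMUSG00000031302, chromosome X, 101299168 to 101325963, plus strand), found at both kinds of synapse and in glia, had 15.8, 26.2 and 29.2 CPM against 19.8, 28.1 and 49.7 CPM. The top value belonged to Isl1CKO 1 alone, and the log2 fold change of 0.32 (95% interval -0.13 to 0.78, edgeR adjusted p = 0.403) was 0.12 without that library. Nlgn1 (ENSMUSG00000063887, chromosome 3, 25426215 to 26332460, minus strand), of excitatory synapses, varied most of the 3, from 1.00 to 24.5 CPM in controls and from 4.12 to 33.3 CPM in the other group. Its interval of -0.65 to 1.81 around 0.58 in log2 fold change (edgeR adjusted p = 0.603) leaves room for a sizeable change in either direction. The coefficient of variation among controls was 71.0% for Nlgn1, 22.9% for Nlgn2 and 20.3% for Nlgn3.

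Ordered by mean CPM per kb of exon, the controls had Tenm3 first at 12.1 ± 1.40 (SD, n = 6), above Tenm4 in every library and with no overlap. Tenm4 at 4.93 ± 1.41 and Nlgn2 at 4.92 ± 1.13 did not differ beyond their spread. They were followed by Nrxn3 at 3.41, Nlgn3 at 2.61, Nrxn2 at 2.36, Tenm2 at 1.46, Nlgn1 at 0.940 and Tenm1 at 0.0316, and in each of these steps the ranges of neighbours overlapped. In the libraries labelled Isl1CKO, Tenm3 was first again at 6.69 ± 1.01, but it overlapped Nrxn3 at 5.50 ± 1.64 and exceeded it in 4 of 6 libraries. Nlgn2 at 4.31, Nlgn3 at 3.26, Tenm2 at 2.37, Tenm4 at 2.09, Nrxn2 at 1.81, Nlgn1 at 1.41 and Tenm1 at 0.744 followed, each overlapping the next. Tenm4 thus stood second of the 9 in controls and sixth in the other group.

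The proteins that these adhesion molecules bind were read from a list of 53 partner genes in 7 groups, of which 47 were tested. Of the 47, 15 passed, 11 higher and 4 lower, which is 31.9% against 10.2% of all tested genes, with a median log2 fold change of 0.14. This list too was chosen with earlier results of these data known, so its share is a description and not a test. Without Isl1CKO 2, 3 and 5 there were 7, all of them among the 15: Cbln2, Nxph4, Igsf21, Flrt1, Flrt3, Apba2 and Khdrbs2.

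The latrophilin genes, which encode receptors of teneurins, moved in both directions. Of the 6 latrophilin and FLRT genes, 3 were higher and 1 was lower. The share called was 66.7%, against 10.2% of all tested genes, in a list chosen with earlier results known. Adgrl2, which encodes latrophilin 2, fell: controls lay between 68.2 and 114 CPM and the other group between 27.9 and 66.2 CPM, without overlap. The fit gave -0.91 in log2 fold change (SE 0.22, edgeR adjusted p = 0.0132). Adgrl3, which encodes latrophilin 3, rose: controls lay between 61.2 and 120 CPM and the other group between 109 and 166 CPM, and control 3 was the only control within the upper range. The fit gave 0.64 in log2 fold change (SE 0.15, edgeR adjusted p = 0.0122). Both calls were lost without Isl1CKO 2, 3 and 5 (edgeR adjusted p = 0.0771 for Adgrl2 and 0.0966 for Adgrl3), at log2 fold changes of -0.98 and 0.59. Each overlaps exons of an opposite-strand gene, Gm43573 and Gm16054. Adgrl1 did not pass, with a log2 fold change of -0.26 and a 95% interval of -0.53 to 0.0026 (edgeR adjusted p = 0.219).

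The FLRT genes, whose proteins bridge latrophilins and other adhesion receptors, were higher in 2 of 3 cases, against 5.01% of all tested genes. Flrt3 (chromosome 2, 140650914 to 140671469, minus strand) went from a lowest, median and highest of 4.20, 8.58 and 21.0 CPM in controls to 112, 142 and 214 CPM, so that the groups were far apart. Its mean rose from 9.59 ± 6.05 to 148 ± 35.3 CPM (SD, n = 6), which the fit put at 3.94 in log2 fold change (SE 0.33, edgeR adjusted p = 2.20e-06). Flrt1 rose from 21.7 ± 7.30 to 54.8 ± 13.1 CPM (SD, n = 6), which the fit put at 1.34 in log2 fold change (edgeR adjusted p = 0.00350), also with no overlap. Flrt2 had 1.91 to 67.6 CPM in controls and 24.7 to 146 CPM in the other group and did not pass (log2 fold change 1.50, 95% interval 0.25 to 2.75, edgeR adjusted p = 0.131).

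Among 12 tested genes of secreted or membrane ligands of neurexins, 4 were higher and 0 lower, while 8 did not pass. That is 33.3% called, against 10.2% of all tested genes, of which 5.01% were higher. The list was chosen with earlier results known, so these counts are descriptions. The list's median log2 fold change was -0.11. Cbln2, which encodes a secreted cerebellin that links neurexins to glutamate receptors of the delta type, went from 4.39, 7.49 and 16.9 CPM as lowest, median and highest control to 265, 480 and 738 CPM. The groups were apart by more than the whole spread within the controls. The mean rose from 9.24 ± 4.96 to 490 ± 168 CPM (SD, n = 6), which the fit put at 5.73 in log2 fold change (SE 0.36, edgeR adjusted p = 1.95e-07), and Cbln2 ranked 14 by p among the tested genes. Its receptor gene Grid1 did not pass, with 0.59 in log2 fold change (edgeR adjusted p = 0.365) and a mean of at most 8.61 CPM in either group.

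The neurexophilin genes, which encode small secreted ligands of alpha-neurexins, were represented by 2 tested members and both rose. Nxph4 had 0.296 to 1.75 CPM in controls and 10.5 to 50.1 CPM in the other group, which the fit put at 4.18 in log2 fold change (SE 0.46, edgeR adjusted p = 2.86e-05). Nxph2 had 0.0732 to 21.4 CPM in controls and 33.7 to 89.5 CPM in the other group, which the fit put at 3.35 in log2 fold change (SE 0.74, edgeR adjusted p = 0.00987). Control 3 held the highest control level of Nxph2, and without it the log2 fold change was 4.25. With limma-voom it was 4.81 and with the replicate number as a block 4.01. Without Isl1CKO 2, 3 and 5 it was 3.26 and the call was lost (edgeR adjusted p = 0.0659). Igsf21, whose product is known to bind NRXN2 at inhibitory synapses, rose from 59.7 ± 9.92 to 126 ± 22.6 CPM (SD, n = 6), which the fit put at 1.08 in log2 fold change (edgeR adjusted p = 1.60e-04). The 4 tested LRRTM genes, which encode postsynaptic neurexin ligands, did not pass. Among them the best expressed, Lrrtm2, had a log2 fold change of -0.32 with a 95% interval of -0.84 to 0.20 (edgeR adjusted p = 0.478).

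**Figure D4:**
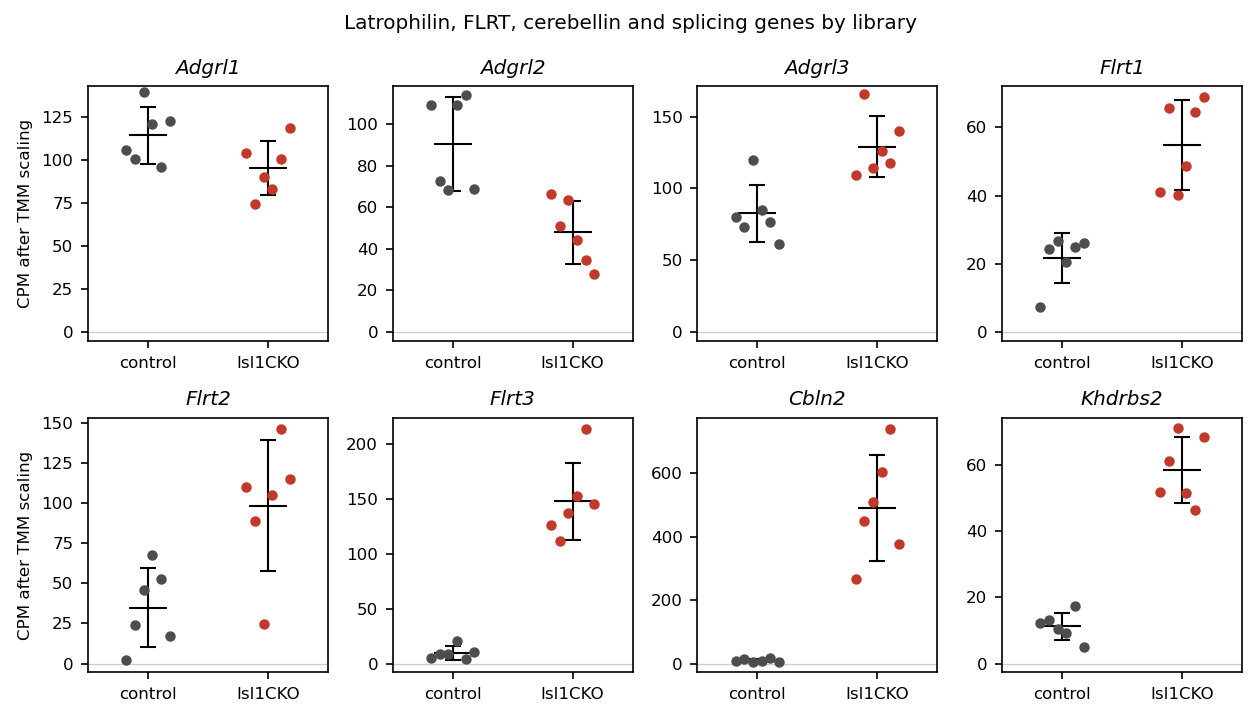
Levels of the latrophilin and FLRT genes, Cbln2 and Khdrbs2 in every library, in CPM after TMM scaling on linear axes; points are the 6 libraries of a group, the wide bar is the mean and the thin bars the SD. Flrt3, Flrt1, Cbln2 and Khdrbs2 are higher and Adgrl2 lower in all libraries labelled Isl1CKO than in all controls, and Adgrl1 and Flrt2 overlap.

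Scaffold proteins inside the cell tie neurexins to the release machinery and neuroligins to receptors. On the neurexin side, the scaffold genes Cask and Apba2 rose without overlap between the groups. Their fitted changes were 0.38 (Cask, edgeR adjusted p = 0.00849) and 0.58 (Apba2, edgeR adjusted p = 0.00281) in log2. On the neuroligin side, 14 of 16 tested scaffold genes did not pass, and the 12.5% called are near the 10.2% of all tested genes. Gphn, which encodes gephyrin, the scaffold of inhibitory synapses, had a log2 fold change of 0.12 with a 95% interval of -0.21 to 0.44 (edgeR adjusted p = 0.696), and the PSD-95 gene Dlg4 one of 0.15 (edgeR adjusted p = 0.733). Magi2 rose by 0.82 on the log2 scale at the edge of the threshold (edgeR adjusted p = 0.0493). It lost the call when any single library other than Isl1CKO 4 was left out (edgeR adjusted p from 0.0620 to 0.112) and with the replicate number as a block (edgeR adjusted p = 0.106), and it shares exons with Gm29254. Of the 5 scaffold genes called, Apba2 was the only one called without Isl1CKO 2, 3 and 5.

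A pair of regulators remained. Mdga1, whose product binds neuroligins and blocks their access to neurexins, fell, with 91.8 to 156 CPM in controls, 51.6 to 86.2 CPM in the other group, no overlap and -0.65 in log2 fold change (SE 0.16, edgeR adjusted p = 0.0149). This call was lost without Isl1CKO 2, 3 and 5 (edgeR adjusted p = 0.151). Khdrbs2 (chromosome 1, 32172714 to 32658568, plus strand), which encodes SLM1, an RNA-binding protein of the family that sets a neurexin splice choice, went from 5.05, 11.2 and 17.4 CPM to 46.5, 56.5 and 71.0 CPM as lowest, median and highest. Its mean rose from 11.2 ± 4.14 to 58.4 ± 9.97 CPM (SD, n = 6), which the fit put at 2.38 in log2 fold change (SE 0.24, edgeR adjusted p = 1.21e-05). Its relatives Khdrbs1 and Khdrbs3 did not pass, with -0.088 (edgeR adjusted p = 0.755) and -0.0097 (edgeR adjusted p = 0.986) in log2 fold change. Whether the splice forms of Nrxn2 or Nrxn3 differed was not analysed here, since the table holds 1 count per gene.

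**Figure D5:**
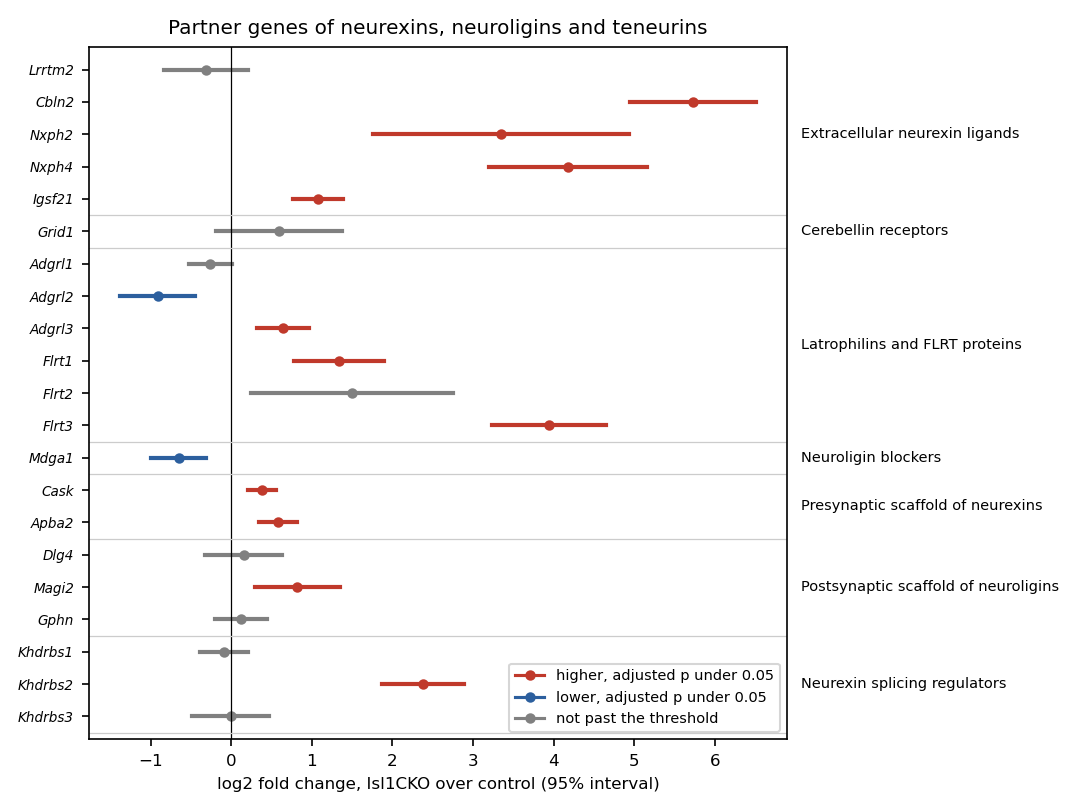
Log2 fold change, Isl1CKO over control, of the partner genes named in the text with 95% intervals from the edgeR fit, grouped by role; colour marks genes past an adjusted p of 0.05 over all tested genes. Extracellular ligands and FLRT genes reach the furthest, up to 5.73 for Cbln2, while Magi2 is the only coloured gene among the postsynaptic scaffold genes drawn.

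For the member of each family with the smallest p, the genes with the most similar pattern of log2(CPM + 1) over the 12 libraries were found among the 9904 genes that averaged 3 or more in log2 CPM. For Tenm3 these were mt-Cytb, Gm48261 and Fhod3, with Pearson's r of 0.973, 0.950 and 0.949, and of 0.828, 0.738 and 0.657 after centring on the group means. The mitochondrial gene mt-Cytb was itself lower in the libraries labelled Isl1CKO (log2 fold change -0.33, edgeR adjusted p = 9.14e-04), and the part of the mitochondrial share in the fall of Tenm3 was not tested. For Nrxn3 they were Jpt1, Trip13 and Gm6104, with r of 0.907, 0.871 and 0.859. For Nlgn3 they were Pde4d, A430033K04Rik and Riok2, with r of 0.887, 0.876 and 0.848. The points share library depth and, for uncentred values, genotype, and the correlations are descriptions over the same 12 libraries.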

How the data were processed

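RNA was read from 12 libraries, 6 per group. The authors deposited 1 table of raw counts per gene, not normalized. The submitters' processing notes name cutadapt 1.18, Bowtie 1.2.2, STAR 2.7.0c, featureCounts and the build GRCm38.p6, without their order. The annotation release and the use of strand are not given in the sources used here, so counts of overlapping genes are uncertain. Symbols were matched for 25620 of 25674 identifiers, and 0 columns were left unmapped. Coordinates and exon lengths are from GENCODE M21 on GRCm38, and promoter windows from RefSeq on GRCm38.p6.

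Genes were filtered with filterByExpr (minimum count 10), scaled by TMM and tested with edgeR 4.0.16 (R 4.3.3), quasi-likelihood and robust, over the whole table. The standard error is the log2 fold change divided by the square root of F, and the 95% interval uses the fit's degrees of freedom. Fold changes are Isl1CKO over control. Floors of 3 counts cover counting error only. DESeq2 1.42.0 and limma 3.58.1 gave alternatives. No pair of libraries agreed within counting noise (smallest chi-square per gene 18.6 over 66 pairs).

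The 9 genes and all lists were chosen with earlier results of these data known. Named genes were Isl1, the 9 genes, up to 4 called genes with the smallest p in each partner list, the 3 genes most like 1 member per family, and marker genes as levels. Some partner genes enter the counts of the lists but are not reported here by name. Other genes named among the partners were added after their values were seen. Neuron markers summed to 12200 to 14000 CPM in controls and 7690 to 10900 CPM in the libraries labelled Isl1CKO. Hair cell markers summed to 243 to 498 and 288 to 576 CPM, nearly all from Myo6, endothelial markers to 0.366 to 1.33 and 0.365 to 29.9 CPM, and red blood cell markers to 1.41 to 4.81 and 1.01 to 5.87 CPM.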

Additional observations from a re-analysis of the deposited data

Results flagged for a closer look

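In 4 of 18 combinations of gene and group, 1 library stood apart from the other 5 by Dixon's criterion. Chance alone gives about 0.9 if CPM values are normally distributed, which was not tested. Nrxn2 was at 12.8 CPM in Isl1CKO 3, against 26.4 to 28.9 CPM in the other libraries of that group. Nlgn3 was at 49.7 CPM in Isl1CKO 1, against 19.8 to 28.5 CPM. Tenm1 was at 2.67 CPM in control 3, against 0 to 0.249 CPM in the other controls. Tenm3 was at 48.5 CPM in Isl1CKO 4, against 67.4 to 77.1 CPM.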

How the results depend on the processing

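The direction of all 9 genes was the same in all 20 alternatives, which were another filter, scaling or test, the replicate block, and fits lacking Isl1CKO 2, 3 and 5 or any single library. Tenm1, Tenm3 and Tenm4 passed in all 20, at log2 fold changes of 4.08 to 6.48, -0.95 to -0.77 and -1.34 to -1.08. Nrxn3 also passed with a mean of at least 5 CPM (0.69, edgeR adjusted p = 0.0351), DESeq2 (0.69) and limma-voom (0.70). Tenm2 passed with DESeq2 (0.70, adjusted p = 0.0446) and limma-voom (0.87, adjusted p = 0.0119). DESeq2 and limma-voom thus each called 5 of the 9. Over all 14813 tested genes they called 2100 and 1782, against 1511 in the main fit. With each library left out in turn, Nrxn3 ran from 0.58 to 0.78 (edgeR adjusted p from 0.0371 to 0.120) and Tenm2 from 0.58 to 0.96 (edgeR adjusted p from 0.00648 to 0.173). The number called of the 9 then ran from 3 to 5, and that over all tested genes from 1178 to 1517. Without Isl1CKO 2, 3 and 5, 767 genes and 7 partner genes passed, against 1511 and 15. That fit has fewer samples. Same-numbered libraries did not pair (correlations of deviations -0.0560 to 0.152). With the replicate block, 1450 genes, 3 of the 9 and 16 partner genes passed, and Tenm1 stood at 5.23. Magi2 lost its call in 16 of 20 alternatives. At a floor near 0.230 CPM, of the 9 genes only Tenm1 in controls was limited by depth.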
